A study of Mus musculus with 6 samples.

Results

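Hemoglobin and red cell genes were examined in poly(A)-selected transcriptomes of mouse RPE/choroid, the retinal pigment epithelium together with the vascular layer beneath it. The members were chosen by symbol, as the genes Hba-a1, Hba-a2, Hbb-bs, Hbb-bt, Alas2, Slc4a1, Slc25a37, Epb4.2 and Bpgm. Of these 9 genes, 7 had a row in the table of 33924 genes. Hbb-bs and Hbb-bt, the adult beta-globin genes of C57BL/6 mice, had none under these symbols. A total of 6 libraries was made from C57BL/6J mice, 3 young and 3 aged, with a pair of eyes in each sample. Young mice were 1 to 2 months old by their labels. Titles put the aged mice at 20 to 24 months, and the separate age entry narrows this to 22 to 24 months. The labels name no treatment and no altered gene. All 6 animals are labelled male, while the study's methods include both sexes and a somewhat older range for the young group.

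The values used are the authors' mean normalized counts, 1 value per gene averaged over the 6 libraries of both age groups. Such a mean carries no value for a single library, no SD between mice and no depth, so levels are given without error and young and aged mice were not compared here. The authors' own columns comparing the ages were not used. As the tissue is bulk, fewer red cells and less RNA per cell cannot be told apart. The choroid is one of the most densely perfused tissues of the body.

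Hemoglobin carries oxygen in red cells as a tetramer of alpha-globin and beta-globin chains, each of which holds a heme. Immature red cells make heme in mitochondria, starting with the enzyme Alas2, from iron that the carrier Slc25a37 (mitoferrin-1) brings in. The anion exchanger Slc4a1 (band 3) and protein 4.2, encoded by Epb4.2, link the membrane to the spectrin skeleton. Bpgm makes 2,3-bisphosphoglycerate, which lowers the oxygen affinity of hemoglobin. Mature mammalian red cells have no nucleus, and reticulocytes still carry globin mRNA.

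The alpha-globin genes are near-identical copies, which limits what their separate values mean. In GRCm38, Hba-a1 (ENSMUSG00000069919.7) lies on the plus strand at chr11:32283511-32284465 and Hba-a2 (ENSMUSG00000069917.7) on the plus strand at chr11:32296489-32297298, each with 3 exons. Their coding sequences of 426 bases, without the stop codon, differ by 1 substitution, C381T, counted from the A of the start codon, with the base of Hba-a1 first. It changes 0 amino acids. The end of both coding sequences, from base 337 to base 426 of the GENCODE transcripts, is shown because it holds this single difference, in capitals.

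Hba-a1: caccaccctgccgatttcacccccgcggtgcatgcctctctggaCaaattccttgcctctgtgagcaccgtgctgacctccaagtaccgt
Hba-a2: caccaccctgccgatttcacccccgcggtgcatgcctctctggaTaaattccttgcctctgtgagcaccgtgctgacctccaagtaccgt

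Of the words of 31 bases in the transcripts of Hba-a2, 92.6% also occurred in Hba-a1, and 75.4% of those of Hba-a1 occurred in Hba-a2. Outside the coding part the annotated transcripts differ more, with 196 bases before the start codon in Hba-a1 and 35 in Hba-a2. The pseudogene Hba-ps4 shared 18 of the 780 words of Hba-a1 and had a mean normalized count of 72.2. How the quantification divided reads between the copies was not tested, and the sum of the pair does not depend on that division. The sum would still miss reads left out because they match both copies, and whether any were left out was not tested.

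The beta-globin genes that had no row are also close copies, but their transcripts share less. Hbb-bs lies on the minus strand at chr7:103826534-103828096 and Hbb-bt on the minus strand at chr7:103812524-103813996, each with 3 exons. Their coding sequences of 441 bases differ by 1 substitution, C417T, counted as above with the base of Hbb-bs first, and this changes 0 amino acids. Words of 31 bases shared with the other copy made up 54.4% of those of Hbb-bs and 59.4% of those of Hbb-bt. Bases 352 to 441 are shown because they hold this difference, with the differing base in capitals.

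Hbb-bs: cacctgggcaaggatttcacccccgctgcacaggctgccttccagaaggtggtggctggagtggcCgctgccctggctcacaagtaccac
Hbb-bt: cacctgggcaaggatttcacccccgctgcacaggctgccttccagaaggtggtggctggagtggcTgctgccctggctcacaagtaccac

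The adult alpha-globin genes were the most abundant members. Hba-a1 had a mean normalized count of 37845, at rank 82 of all genes, and Hba-a2 had 35706, at rank 92. Their sum of 73551 was 91.1% of the 80764 counts that the 7 members held together. All 7 members together, with no beta-globin among them, held 0.198% of the counts in the table. For scale, the most abundant gene of the table was Trf, which encodes the iron carrier transferrin, with a mean normalized count of 540972 or 1.33% of the counts.

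The table lists 2 adult beta-globin rows under other symbols, Hbb-b1 with a mean normalized count of 90982, at rank 22, and Hbb-b2 with 46024, at rank 56. RefSeq keeps these as genes apart from Hbb-bs and Hbb-bt, so they were not counted as members. GENCODE lists no gene of these names in the beta cluster of GRCm38, where Hbb-bs and Hbb-bt are the adult genes. Which reference sequence stands behind the rows, and whether they hold reads of Hbb-bs and Hbb-bt, was not tested. The rows need not be further genes of these mice. Their sum was 137006, or 0.336% of the counts. The alpha pair held 0.537 times as many counts as these beta rows, and whether reads that match several copies were kept was not tested. With the transcript lengths of Hbb-bs and Hbb-bt standing in for the missing ones, the ratio per kilobase was 0.576. With these rows, the adult globins held 0.516% of all counts.

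Embryonic and minor globin genes were listed at mean normalized counts under 10. In the alpha cluster, the genes run in the order Hba-x, Hba-a1, Hbq1b, Hba-a2 and Hbq1a, with 23.7 kilobases between the starts of the first and the last. Hba-x, the embryonic zeta-globin, had a mean normalized count of 0.335. The theta-globin genes Hbq1b and Hbq1a had mean normalized counts of 7.31 and 7.22, although each lies next to a highly expressed adult gene. In the beta cluster, the embryonic genes Hbb-y and Hbb-bh1 had mean normalized counts of 8.88 and 0.653, and the minor gene Hbb-bh2 had 1.32. The plot along the alpha cluster shows high values at the adult genes and low values at the genes beside them.

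**Figure D1:**
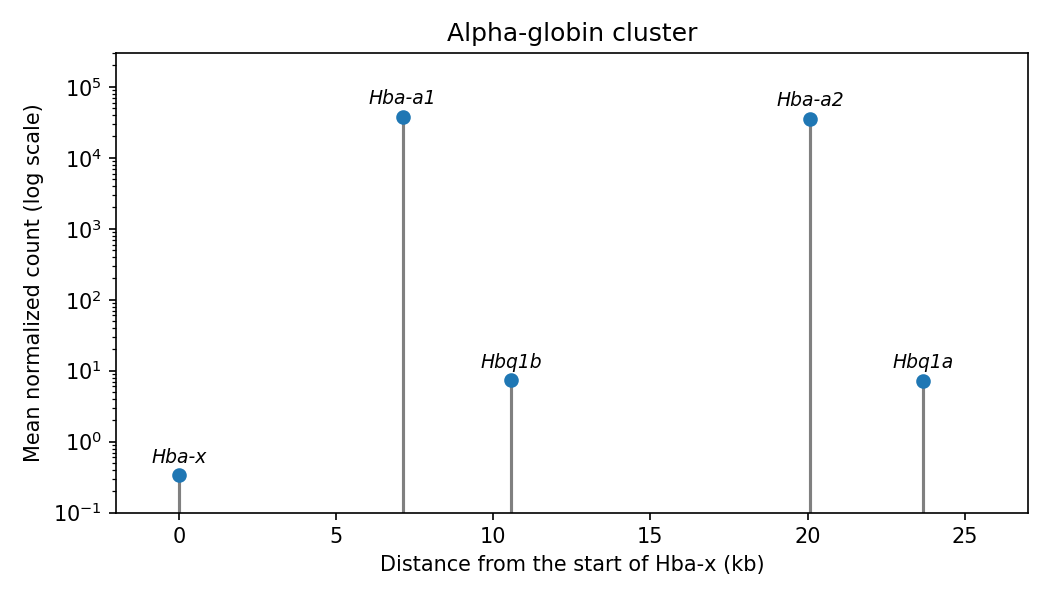
Mean normalized count (log scale, authors' mean over 6 libraries) of the genes of the alpha-globin cluster against the distance of each gene's start from the start of Hba-x, in kilobases; the grey lines run from the lower edge of the axis to each value. Hba-a1 (37845) and Hba-a2 (35706) stand far above Hbq1b (7.31), Hbq1a (7.22) and Hba-x (0.335).

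The study's methods give the starting values as TPM, which are already scaled to transcript length. Whether the deposited means still depend on length was not tested. Levels of different genes were compared here per kilobase of the longest protein-coding transcript, which may correct for length again. On this scale the order of the members was Hba-a2 with 64451, Hba-a1 with 54141, Bpgm with 2223, Alas2 with 781, Slc25a37 with 152, Slc4a1 with 9.94 and Epb4.2 with 1.70 mean normalized counts per kilobase. The levels of Hba-a1 and Hba-a2 change their order with the transcript length used, as with coding length they were 88838 and 83816. By mean normalized count Hba-a1 was also the higher of the pair, and the other members kept the order above. Whether neighbours in this order differ beyond the spread between mice could not be tested. The median over all genes above 0 with a transcript length was 95.5 mean normalized counts per kilobase, and 5 of the 7 members lay above it. Over genes with a mean of at least 10 the median was 225, and Slc25a37 lay below that. The median over genes above 0 is the one used for the lists below unless stated.

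**Figure D2:**
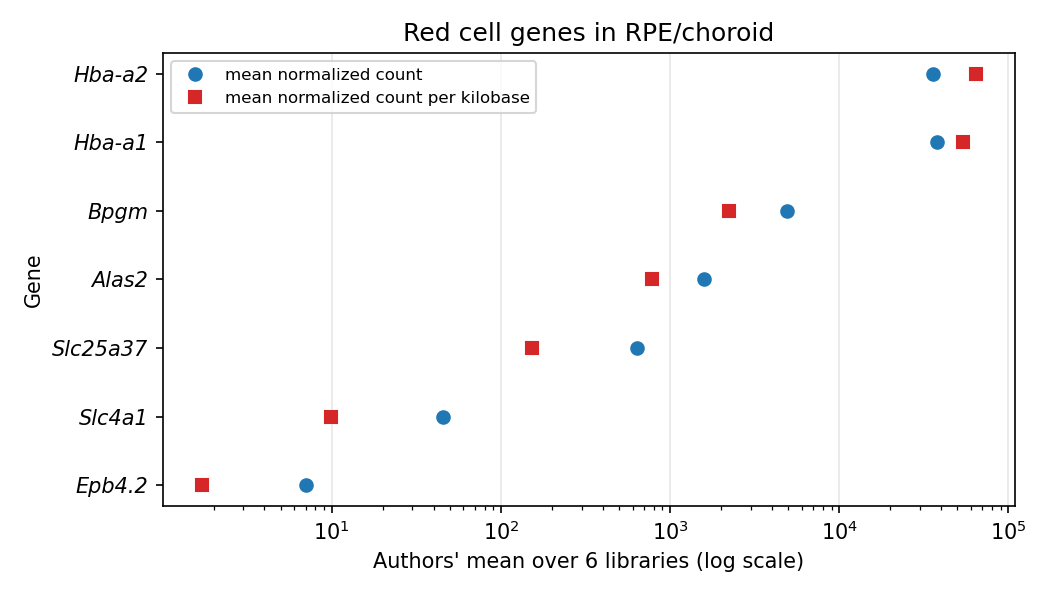
Authors' mean over 6 libraries on a log scale for the 7 members with a row, as the mean normalized count (blue circles) and per kilobase of the longest protein-coding transcript (red squares). Values per kilobase run from 1.70 for Epb4.2 to 64451 for Hba-a2.

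Alas2, the erythroid form of the first enzyme of heme synthesis, had a mean normalized count of 1591, above 70.0% of the genes with a mean of at least 10. It lies on the plus strand at chrX:150547375-150570638, and 12.9% of its exonic bases overlap exons of Apex2 on the other strand. The study's methods describe a kit that keeps strand for the RNA depleted of ribosomal RNA. Whether the quantification used strand is not given in the sources used here. Alas1, the form that other cells use, had a mean normalized count of 2673. Per kilobase Alas2 had 0.993 times the level of Alas1, and 0.651 times with coding length. By mean normalized count, with no division by length, the ratio was 0.595. The other heme synthesis genes lay between 118 for Cpox and 2169 for Alad in mean normalized counts per kilobase. All 9 genes of this list lay above the median of all genes above 0. Cpox lay below 225, the median of genes with a mean of at least 10.

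Slc25a37 lies on the minus strand at chr14:69241848-69285112 and had a mean normalized count of 636, above 48.9% of the genes with a mean of at least 10. Slc25a28 (mitoferrin-2), its counterpart in other tissues, had a mean normalized count of 1465. Per kilobase Slc25a37 had 0.160 times the level of Slc25a28, and 0.468 times with coding length. By mean normalized count the ratio was 0.435. Words shared with other genes made up 7.72% of those of Slc25a37, most of them with Gm16867. All 9 genes of iron uptake and mitochondrial transport had a mean of at least 10, and Tfrc, the transferrin receptor, was highest with 1322 mean normalized counts per kilobase.

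Bpgm lies on the plus strand at chr6:34476207-34505613 and shared no word of 31 bases with another gene. Its mean normalized count of 4934 was above 90.8% of the genes with a mean of at least 10. Other enzymes and chaperones of red cells ranged from high to near-absent genes. Prdx2, a peroxidase, and Cat, catalase, had mean normalized counts of 14898 and 11267, and both are used by many cell types. Bnip3l had a mean normalized count of 8990, Car2, a carbonic anhydrase, had 3678, Blvrb had 1198 and Trim10 had 26.8. Car1, another carbonic anhydrase of red cells, had a mean normalized count of 1.29, Hemgn had 2.64 and Trim58 had 0.964. Pklr, the pyruvate kinase of liver and red cells, was listed at 0. No row was matched to Ahsp, the alpha-globin chaperone.

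The genes of the red cell membrane were the lowest members. Slc4a1 (minus strand, chr11:102348824-102366203, 20 exons) had a mean normalized count of 45.2, above 14.1% of the genes with a mean of at least 10. Epb4.2, listed as Epb42 in GENCODE (minus strand, chr2:121017891-121037072, 13 exons), had a mean normalized count of 7.0 and was the 1 member under 10. Per kilobase Hba-a1 was 5449 times as high as Slc4a1, and 502 times as high with the median transcript of each gene. By mean normalized count it was 838 times as high. Other genes of the red cell membrane and skeleton varied widely. Mean normalized counts were 4.26 for Rhag, 1.97 for Kel and 16.1 for Spna1, the erythroid alpha-spectrin. They were 944 for Spnb1, the erythroid beta-spectrin, 909 for Epb4.9 (dematin), 745 for Ermap and 325 for Ank1 (ankyrin). Which cells of the bulk tissue these transcripts came from was not tested. Epb4.1 (protein 4.1) and Add1 (adducin), which many cells use, had 4119 and 7163. Of the 17 genes of this list, 7 lay above the median of all genes per kilobase, and the highest was the water channel Aqp1 with 7931.

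Transcription factors that drive red cell formation varied widely. Gata1 had a mean normalized count of 5.13, Klf1 had 13.4, Gfi1b had 0.636 and Nfe2 had 32.1. Tal1 had 276, Zfpm1 had 135 and Bcl11a had 39.1. Epor, the erythropoietin receptor, had 61.8. Lmo2 and Ldb1, which other cells including endothelium also express, had mean normalized counts of 3367 and 3152. These were the 2 of 10 genes of the list above the median of all genes per kilobase.

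All 7 genes that clear hemoglobin and heme had a mean of at least 10. Hmox1 and Hmox2, the heme oxygenases, had mean normalized counts of 1247 and 1624, and Blvra, which converts biliverdin to bilirubin, had 1339. The plasma proteins haptoglobin (Hp) and hemopexin (Hpx) had 250 and 39.4, and their receptors Cd163 and Lrp1 had 208 and 9509.

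Markers of other cells give the setting of these levels. The tissue markers Rpe65 and Rlbp1 had mean normalized counts of 113930 and 102636, whereas Best1 had 81.8. Markers of rods and skeletal muscle were also high, with medians of 10979 and 28023 mean normalized counts per kilobase. Myoglobin (Mb), the globin of muscle, had a mean normalized count of 19289. Platelet, neutrophil and lymphocyte markers had lower medians than the members, and macrophage markers a higher one. The 5 platelet genes had a median of 32.7, the 5 neutrophil genes 185 and the 5 lymphocyte genes 26.2 mean normalized counts per kilobase, against 781 for the 7 members. Other red cell lists did not all share the members' level. Their medians were 26.1 for transcription factors, 39.5 for membrane and skeleton, 697 for heme synthesis and 1611 for enzymes and chaperones. The highest gene of each of these lists was Pf4 with 840, S100a9 with 866 and Cd3g with 141. The 5 macrophage genes had a median of 2493 mean normalized counts per kilobase and reached 92625 in Lyz2, above the highest member. The part of these cells in the members' levels was not tested.

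**Figure D3:**
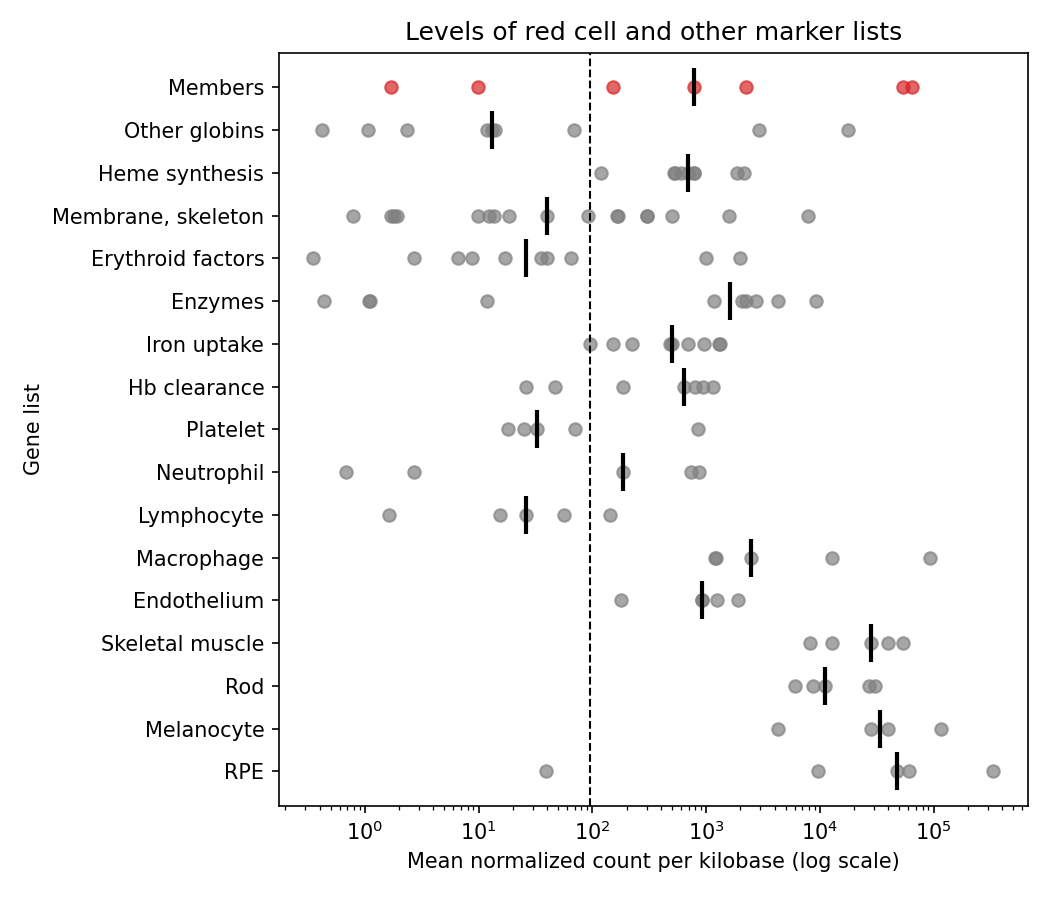
Mean normalized count per kilobase (log scale) of each gene in 17 lists; each point is a gene, the black bars are list medians and the dashed line is the median of all genes above 0 (95.5). The members (red) run from 1.70 to 64451, while the platelet, neutrophil and lymphocyte genes stay at or below 866 and the macrophage genes reach 92625.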

How the data were processed

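Libraries of RPE/choroid came from 3 young and 3 aged mice, and were depleted of ribosomal RNA and poly(A)-selected. According to the study's methods, the authors trimmed reads with BBDuk, mapped them with STAR to Ensembl transcripts of GRCm38, quantified them with Sailfish, scaled them to total counts and ran DESeq2. The deposited table holds a signal per gene, the mean of the authors' normalized counts over all 6 libraries, and 5 columns of the authors' comparison of the age groups (log2 fold change, its error, a statistic and p-values), which were not used. By the study's methods, the Sailfish values were TPM, and the total count method turned them into normalized counts. Whether the deposited means still depend on transcript length was not tested. The means add up to 40816668 over 33924 genes, and 18479 genes have a mean of at least 10. The depth of single libraries is unknown, so no interval is given.

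Transcript lengths, positions and sequences came from GENCODE M21 (GRCm38), which matched 91.1% of the symbols, with older symbols matched through RefSeq synonyms. Words of 31 bases were compared over all transcripts. The word count was tested on simulated data. Python 3.11.15, pandas 2.3.3, numpy 2.4.6 and matplotlib 3.10.9 were used. Named were all members, genes of the red cell lists, and the highest or lowest genes of other lists. Rpe65, Rlbp1, Mb, Apex2, Gm16867, Hba-ps4 and the pairs compared were chosen after their values were seen. The members and lists were chosen with earlier results of these data known. A gene of the membrane list is not reported here.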

Additional observations from a re-analysis of the deposited data

How the results depend on the processing

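No paired analysis was possible because the values are 1 mean per gene over all libraries, and for the same reason no replicate could be left out. Of 64 alternative values, 41 lay within 1.5 times the value reported and 23 did not. The shares of counts, with other denominators, and the alpha to beta ratio were among the 41. The planned ratio per kilobase was not run, as Hbb-b1 and Hbb-b2 had no transcript length, and its stand-in was chosen after seeing the data.

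Dropping genes under a mean of 10 raised the median per kilobase of all genes from 95.5 to 225. Medians of the lists per kilobase also rose with this filter, by its construction, to 1502 for the members, 2888 for other globins, 127 for membrane genes, 737 for neutrophil genes and 41.1 for lymphocyte genes. With the median transcript in place of the longest, which is shorter, they were 1293 for the members, 1579 for heme synthesis, 117 for membrane genes, 2779 for enzymes, 1227 for iron uptake, 1064 for hemoglobin clearance, 27939 for rods and 4228 for macrophages. Of single members, Slc4a1 moved to 126 and Bpgm to 8169 per kilobase with the median transcript, and Slc25a37 moved to 628 with coding length.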
